A study of Solanum lycopersicum with 24 samples.

Results

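The genes described here are the 200 tomato genes whose RNA level peaked most sharply in the transition meristem (TM) of wild-type plants. They were chosen from the wild-type (WT) libraries alone. For each of 34075 genes the mean of 3 WT libraries was taken at each stage, and the 15915 genes with a highest stage mean of at least 2 RPKM (reads scaled to gene length and to the mapped reads of the library) were ranked. The ranking score was the log2 ratio of the WT TM mean to the highest of the other 3 WT stage means, with 0.5 RPKM added to both, and the 200 highest scores were taken. WT levels of these genes are therefore a description, and the reported tests were made only in the mutant libraries, which the ranking did not use. An alternative fit that adds the WT libraries is named as such below.

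The slful genotype, written ful1/ful2/mbp10/mbp20 in the deposited legend after 4 FRUITFULL-like MADS-box genes, was compared with WT at 4 stages: the vegetative meristem (VM), the TM, the floral meristem together with the inflorescence meristem (FIM), and the same kind of sample from the first sympodial shoot (SFIM). The 8 groups held 3 libraries each, slful VM, TM, FIM and SFIM and WT VM, TM, FIM and SFIM, from plants grown in a greenhouse. Each sample pooled 30 to 60 meristems of many plants, so that single plants cannot be followed. The sources used here give neither the kind of mutation, nor the number of mutant lines, nor the cultivar. The labels call the 3 libraries of a group biological replicates. Implied depth ran from 12.93 M reads in slful TM replicate 1 to 90.37 M in WT TM replicate 3. For a pooled tissue, fewer cells of a type and less RNA per cell cannot be told apart.

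The transition meristem is the shoot apex at the step between making leaves and making flowers. It enlarges and domes as flowering signals arrive from the leaves, and in tomato it ends in a flower while growth goes on from a side meristem. FRUITFULL-like genes encode MADS-box transcription factors, a family of DNA-binding proteins known for promoting the floral transition and fruit development. A peak at this stage marks RNA that is higher there than both before flowering and once floral meristems have formed.

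The peak of most chosen genes was shallow. The score was 4.58 at the top, 0.69 at the median and 0.47 at the lowest rank, so that the lowest chosen gene was 1.39-fold above its next WT stage with 0.5 RPKM added. Scores at the border were nearly equal, from 0.4744 down to 0.4730 at ranks 198 to 200 and from 0.4730 down to 0.4707 at ranks 201 to 203. WT TM means ran from 2.01 to 395 RPKM with a median of 7.40, and 73 of the 200 were under 5 RPKM. The next highest WT stage was FIM for 102 genes, VM for 89 and SFIM for 9. In 74 of the 200, all 3 WT TM libraries lay above the other 9 WT libraries, beside 4.04% of the ranked genes.

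The 3 WT TM libraries contributed unequally to this choice. The highest WT TM value came from replicate 1 in 121 genes, from replicate 2 in 72 and from replicate 3 in 7, while replicate 3 was the lowest in 145. Over all ranked genes, the shares were 36.2%, 28.3% and 35.6%, and replicate 3 was the lowest in 21.4%. In 71 genes the highest WT TM library was over 2 times the median one after 0.5 RPKM was added, a count not made over all ranked genes. Summed RPKM of 6 photosynthesis genes, listed here as marks of green tissue, was 835 in WT TM replicate 1, 561 in replicate 2 and 354 in replicate 3, against 431 to 512 in WT VM, 328 to 369 in WT FIM and 242 to 317 in WT SFIM. Of the 6, 4 are among the 200 genes, so the sum is not independent of the choice. Most of it came from Solyc03g034220 and Solyc07g047850, which are outside the 200. Solyc03g034220 was at 463, 334 and 210 RPKM in the WT TM libraries, and Solyc07g047850 at 269, 174 and 116. The sum moved with the WT TM replicate that led most of the genes, and its part in the choice was not tested. When WT TM replicate 1 was left out of the ranking, 120 of the 200 genes were again among the top 200.

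**Figure D1:**
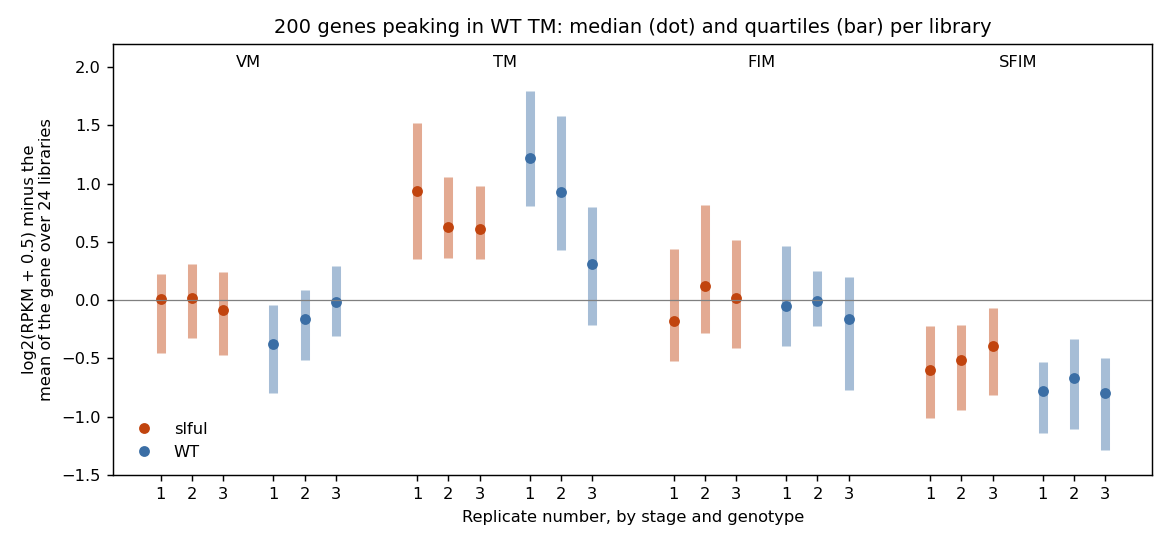
Level of the 200 genes in each of the 24 libraries: the vertical axis is log2(RPKM + 0.5) minus the mean of the same gene over all libraries, the dot is the median gene and the bar runs from the lower to the upper quartile of the genes, with slful in orange and WT in blue. Medians were 0.61 to 0.94 in the slful TM libraries and 0.31 to 1.22 in the WT TM libraries, and every other library had a median of 0.12 or lower.

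In slful, which had no part in the choice, the genes were again mostly highest at TM. The highest slful stage mean was TM for 148 of the 200 genes, or 74.0%, beside 26.7% of all ranked genes. It was VM for 25 genes, FIM for 27 and SFIM for 0, beside 34.1%, 19.7% and 19.6% of all ranked genes. All 3 slful TM libraries lay above the other 9 slful libraries in 60 of the 200, beside 4.25% of the ranked genes. Relative to the mean of each gene, the median was 0.94, 0.63 and 0.61 on the log2 scale in the 3 slful TM libraries, and it lay between -0.60 and -0.40 in the slful SFIM libraries. Leaving out slful TM or slful FIM libraries singly moved the count at TM between 135 and 153.

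Tests in slful used limma on log2(RPKM + 0.5) over the 12 slful libraries and all 15915 ranked genes, with Benjamini-Hochberg adjustment and calls at an adjusted p under 0.05. The 3 comparisons share the slful TM libraries and are given separately. Folds on this scale understate the change of low genes. The fit gave each group its own variance weight. Alternatives named beside a gene are no filter on low genes, a filter of 0.5 RPKM in 3 slful libraries and other pseudocounts. Others are WT libraries added to the fit (all 24 libraries), the 6 libraries of a comparison alone and the replicate number as a block. The rest are no group weights, a shift of each library to a common median, and voom on recovered reads. The fit with all 24 libraries takes part of its spread from the WT libraries that chose the genes. Calls gained or lost with it are therefore not independent of the choice.

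Against slful VM, 106 of the 200 genes were higher in slful TM, beside 16.2% of all genes tested. Lower in slful TM were 6, beside 16.7% of all genes tested. The median log2 fold change was 0.87 for the 200 genes and -0.00 for all genes tested, and 174 of the 200 had a positive value, beside 49.9% of all genes tested. Called increases ran from 0.37 to 4.93 on the log2 scale, and 79 were over 2-fold, beside 3.93% of all genes tested. The libraries of slful TM lay wholly above those of slful VM for 127 genes, beside 24.8% of all genes tested. The 6 that fell changed by -1.20 to -0.41 on the log2 scale, all 6 had their highest WT TM value in replicate 1, and none of them has a deposited description. Their number ranged from 2 without slful TM replicate 2 or 3, and 3 without slful VM replicate 2, to 11 without slful TM replicate 1. Over all genes tested, the lower count of 2664 was 1265, 1352, 2291 and 3628 in the same order.

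Against slful SFIM, 163 of the 200 genes were higher in slful TM, beside 18.2% of all genes tested. Lower in slful TM were 0, beside 12.8% of all genes tested, with 0 at an unadjusted p under 0.05 and 0 by voom on reads recovered from the RPKM values. Without slful TM replicate 1 the lower count was 1, beside 2566 of the 15915 genes tested. The median log2 fold change was 1.29 for the 200 genes and 0.04 for all genes tested. A positive value stood in 197 of the 200, beside 55.9% of all genes tested, and 118 were called at over 2-fold, beside 3.64%. The libraries of slful TM lay wholly above those of slful SFIM for 163 genes, beside 28.6% of all genes tested.

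Against slful FIM, 25 of the 200 genes were higher in slful TM, beside 1.6% of all genes tested. Lower in slful TM were 0, beside 1.01% of all genes tested, again with 0 at an unadjusted p under 0.05 and 0 by voom. The median log2 fold change was 0.66 for the 200 genes and 0.06 for all genes tested. Values were positive in 172 of the 200, beside 59.0% of all genes tested, and 19 were called at over 2-fold, beside 0.949%. The libraries of slful TM lay wholly above those of slful FIM for 90 genes, beside 16.3% of all genes tested. Spread between libraries was widest in slful FIM, with a median SD of 0.224 on the log2 scale, beside 0.128 in slful TM, 0.0828 in slful SFIM and 0.0721 in slful VM. The count of 25 rested on single libraries: it was 55 without slful FIM replicate 1, 1 without replicate 2 and 10 without replicate 3. Over all 15915 genes tested, the count of 255 also moved, to 721, 8 and 89 in the same order.

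**Figure D2:**
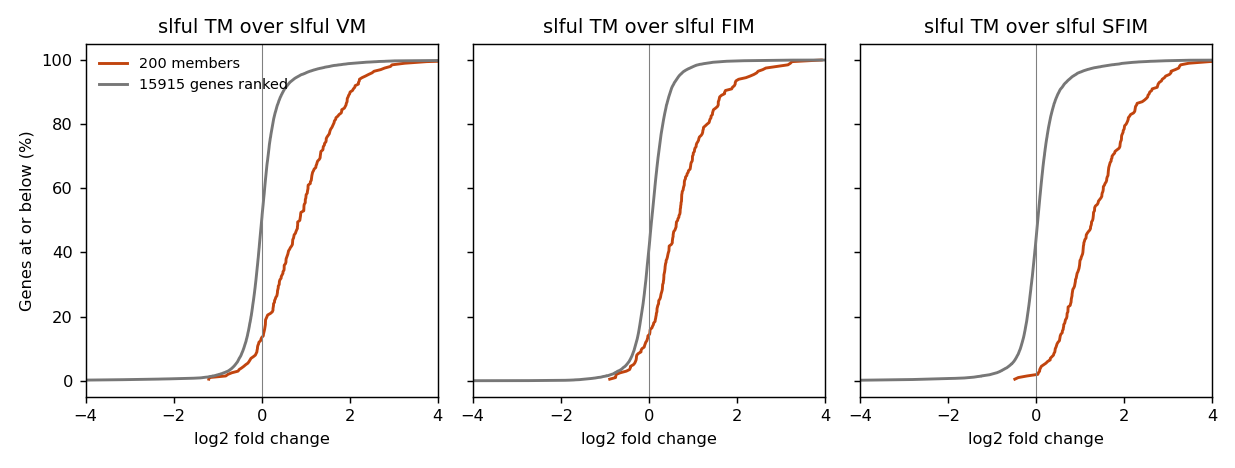
Cumulative share of genes by log2 fold change of slful TM over slful VM, slful FIM and slful SFIM, with the 200 genes in orange and all 15915 ranked genes in grey. The orange curve lies to the right of the grey one in each panel, with medians of 0.87, 0.66 and 1.29 beside -0.00, 0.06 and 0.04.

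Values of TM and FIM libraries carry a median of 15 decimals in the deposited table, and those of VM and SFIM libraries 10. A possible batch behind these 2 formats cannot be told apart from the stage in the comparisons of slful TM with slful VM and slful SFIM. The comparison with slful FIM lies within one format. Young lateral organs are a further source of RNA in a dissected apex. Of 7 lateral organ loci listed here, 6 were ranked and 0 were among the 200. The level was lower in slful TM than in slful VM for all 6, and higher than in slful FIM and slful SFIM for all 6. Of all genes tested, 16.7% were lower in slful TM than in slful VM, and 1.6% and 18.2% higher than in slful FIM and SFIM. Summed RPKM over the 7 loci was 234 to 345 in slful TM, against 671 to 724 in slful VM, 35.4 to 58.3 in slful FIM and 51.4 to 54.2 in slful SFIM. In WT the sum was 301 to 419 at TM, against 604 to 657 at VM, 60.9 to 78.6 at FIM and 43.2 to 53.9 at SFIM. Each sum was far above 0 in every library, and the part of such tissue in these results was not tested.

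Calls were also counted by the WT TM replicate that led a gene. The shares called higher over all genes tested were 16.2% against slful VM, 1.6% against slful FIM and 18.2% against slful SFIM. Of the 121 genes led by WT TM replicate 1, 55 were higher in slful TM than in slful VM, 22 than in slful FIM and 97 than in slful SFIM. Of the 72 led by WT TM replicate 2, the counts were 45, 1 and 60. Of the 7 led by WT TM replicate 3, they were 6, 2 and 6. All 25 genes with their highest slful mean at VM belonged to those led by WT TM replicate 1. The 74 genes whose WT TM libraries all lay above the other 9 gave 41, 8 and 65, and the other 126 gave 65, 17 and 98. Whether these classes differ was not tested.

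**Figure D3:**
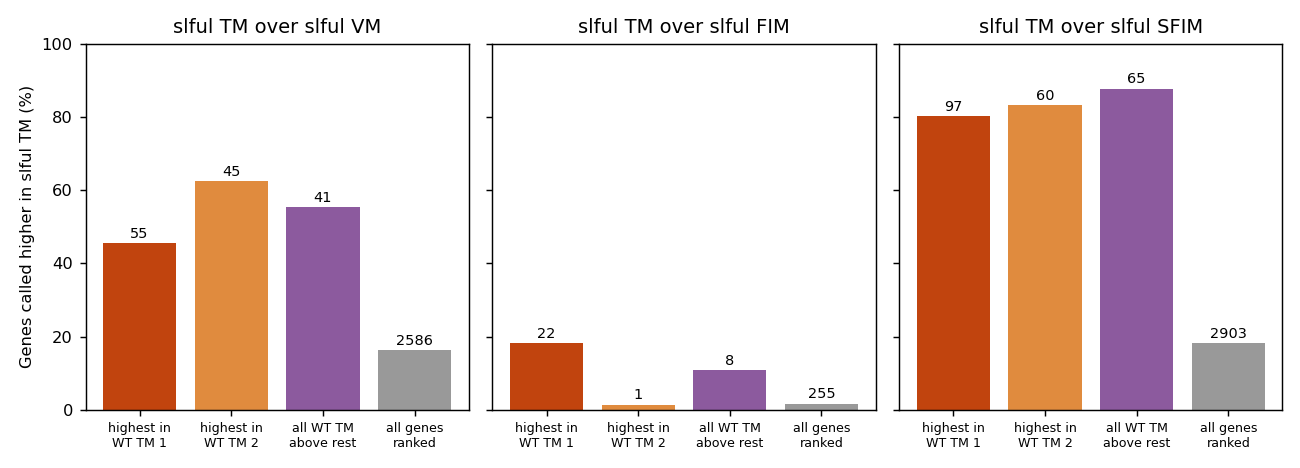
Percent of genes called higher in slful TM than in slful VM, slful FIM and slful SFIM, for the genes led by WT TM replicate 1, those led by WT TM replicate 2, those with all WT TM libraries above the other 9 WT libraries, and all ranked genes; the number of called genes stands on each bar. Against slful FIM the bars hold 22, 1, 8 and 255 genes.

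Calls were counted likewise by the next highest WT stage. The shares called higher over all genes tested were again 16.2% against slful VM, 1.6% against slful FIM and 18.2% against slful SFIM. The 102 genes with WT FIM as the next stage gave 67 calls against slful VM, 6 against slful FIM and 87 against slful SFIM. For the 89 genes with WT VM as the next stage the calls were 32, 17 and 71. Of ranks 1 to 50, 32 were higher in slful TM than in slful VM, with a median log2 fold change of 1.41 over those ranks. Ranks 51 to 100, 101 to 150 and 151 to 200 gave 24, 27 and 23, with medians of 0.96, 0.63 and 0.47. Against slful SFIM these blocks, from ranks 1 to 50 on, gave 40, 42, 44 and 37 calls. The medians were 1.79, 1.26, 0.92 and 0.99. Against slful FIM the calls were 8, 10, 2 and 5.

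What the 200 genes are is known only in part. The deposited tables describe only genes that the authors listed as changed between slful and WT, so 30 of the 200 carry a description, 1 of them "Unknown protein". The 30 were thus drawn partly by their response to the genotype and do not stand for the other 170 genes, whose IDs the files pair with no name. That response includes slful values, and 19 of the 200 were listed as higher in slful at FIM. Slful counts among the described genes are therefore partly set by how they came to be described. Among the 30, 12 were higher in slful TM than in slful VM, 3 than in slful FIM and 24 than in slful SFIM, and 0 were lower in any of the 3. Of all genes tested, 16.2% were higher in slful TM than in slful VM, 1.6% than in slful FIM and 18.2% than in slful SFIM. The shares lower were 16.7%, 1.01% and 12.8%. The highest slful stage was TM for 25 of the 30, beside 26.7% of all ranked genes.

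The gene with the sharpest WT peak was Solyc10g075107, described as a non-specific lipid-transfer protein. Such small secreted proteins bind lipids and are known from cuticle formation and the epidermis. It stood at 10.1, 21.0 and 2.60 RPKM in the slful TM libraries, against 1.03, 0.574 and 0 in slful VM, 0, 0.320 and 0 in slful FIM and 0.825, 0.0574 and 0.533 in slful SFIM. Each slful TM library was above all 9 other slful libraries, although slful TM replicate 3 was the lowest of its group. In WT it stood at 44.8, 66.3 and 44.8 RPKM at TM, against 0 to 2.97 at the other stages. The slful TM level was higher than slful VM by a log2 fold change of 3.25 (SE 0.61, limma adjusted p = 0.00118) and than slful SFIM by 3.28 (SE 0.63, adjusted p = 0.0016). Against slful FIM the value was 3.91 (SE 1.08, adjusted p = 0.0774). That comparison passed without slful TM replicate 3 (adjusted p = 0.0484) or without slful FIM replicate 1 (adjusted p = 0.0203). The same held with no group weights (adjusted p = 0.0018) or the replicate block (adjusted p = 0.0454). In the authors' deposited table it was lower in slful TM than in WT TM, with a log2 fold change of -2.19.

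The E3 ubiquitin-protein ligase RMA1H1 (Solyc10g008410) was higher in slful TM than at each other slful stage. E3 ligases attach ubiquitin to proteins, which commonly marks them for breakdown. Its level was 68.2, 44.0 and 52.1 RPKM in slful TM, against 26.5, 26.0 and 24.8 in slful VM, 23.6, 14.5 and 16.4 in slful FIM and 9.85, 9.47 and 8.84 in slful SFIM. No slful TM library overlapped with another slful stage. In WT it was 63.2, 38.7 and 23.6 RPKM at TM, against 12 to 13.6 at VM, 4.67 to 7.86 at FIM and 5.61 to 7.30 at SFIM. Its log2 fold changes in slful were 1.05 over VM (SE 0.12, limma adjusted p = 1.59e-05), 1.58 over FIM (SE 0.21, adjusted p = 0.00135) and 2.46 over SFIM (SE 0.12, adjusted p = 6.11e-09). The call against slful FIM was lost without slful FIM replicate 2 (adjusted p = 0.24).

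A stress-associated protein with an AN1 zinc finger (Solyc02g087210), at rank 185, was also higher in slful TM than at each other slful stage. Proteins of this family are known from responses to drought, salt and cold. It was at 9.66, 7.29 and 11.6 RPKM in slful TM, against 2.03, 2.67 and 2.23 in slful VM, 1.93, 2.91 and 1.73 in slful FIM and 2.98, 2.09 and 2.79 in slful SFIM. In WT TM it was at 5.58, 3.46 and 2.50 RPKM, and the third of these fell within the range of 1.87 to 2.75 at the other WT stages. The difference between genotypes was not tested here. In slful the log2 fold changes were 1.82 over VM (SE 0.18, limma adjusted p = 5.85e-06), 1.90 over FIM (SE 0.32, adjusted p = 0.00652) and 1.67 over SFIM (SE 0.19, adjusted p = 2.12e-05). Without slful FIM replicate 2 or 3 the call against FIM was lost (adjusted p = 0.313 and 0.08). In the authors' deposited table this gene was higher in slful TM than in WT TM, with a log2 fold change of 1.32.

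Chlorophyll a-b binding proteins carry chlorophyll in the light-harvesting antenna. Solyc02g071010 was at 12.3, 9.97 and 9.23 RPKM in slful TM, against 10.6, 10.5 and 12.5 in slful VM, 3.16, 3.86 and 3.0 in slful FIM and 5.27, 4.30 and 5.08 in slful SFIM. Slful TM and slful VM overlapped, and both lay above FIM and SFIM. WT libraries had it at 27.7, 10.4 and 6.25 RPKM at TM, against 6.04 to 8.27 at VM, so that WT TM replicate 3 lay within the VM range. Its slful log2 fold changes were -0.10 over VM (SE 0.13, limma adjusted p = 0.597), 1.51 over FIM (SE 0.22, adjusted p = 0.00291) and 1.03 over SFIM (SE 0.13, adjusted p = 6.58e-05). The FIM call was lost without slful FIM replicate 2 (adjusted p = 0.259) or replicate 3 (adjusted p = 0.0522), and with all 24 libraries in the fit (adjusted p = 0.058). The second such gene, Solyc02g071030, was at 40.0, 41.9 and 38.2 RPKM in slful TM, against 18.3, 17.9 and 3.39 in slful VM, 29.5, 20.7 and 20.1 in slful FIM and 9.34, 7.28 and 1.75 in slful SFIM. The 3 slful TM libraries lay close together and above the other 9.

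For Solyc02g071030 only the comparison with slful SFIM passed, with a log2 fold change of 2.86 (SE 0.78, limma adjusted p = 0.0137). It was lost without slful TM replicate 2 (adjusted p = 0.0746) or replicate 3 (adjusted p = 0.102). Against slful VM the value was 1.88 (SE 0.75, adjusted p = 0.0718), and it passed without slful VM replicate 1 or 2 or slful TM replicate 1 (adjusted p of 0.0315 to 0.0427). The same held with all 24 libraries, no group weights, the replicate block or voom (adjusted p of 0.00244 to 0.0468). Against slful FIM (adjusted p = 0.808) it passed only with 6 libraries alone (adjusted p = 0.0462). Chlorophyll a-b binding genes are near-identical copies in many plants, so reads may be shared among them. Of the 6 photosynthesis loci listed here, 4 (66.7%) were among the 200 genes, beside 1.26% of all ranked genes. Solyc02g071010 was 1 of the 4. Over all 6, 0 were higher and 1 was lower in slful TM than in slful VM, 1 was higher than in slful FIM, and 3 were higher than in slful SFIM. Over all genes tested, 16.2% were higher and 16.7% lower than in slful VM, 1.6% higher than in slful FIM and 18.2% higher than in slful SFIM. Their summed RPKM was 357 to 555 in slful TM, against 460 to 575 in slful VM, 280 to 402 in slful FIM and 296 to 341 in slful SFIM.

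**Figure D4:**
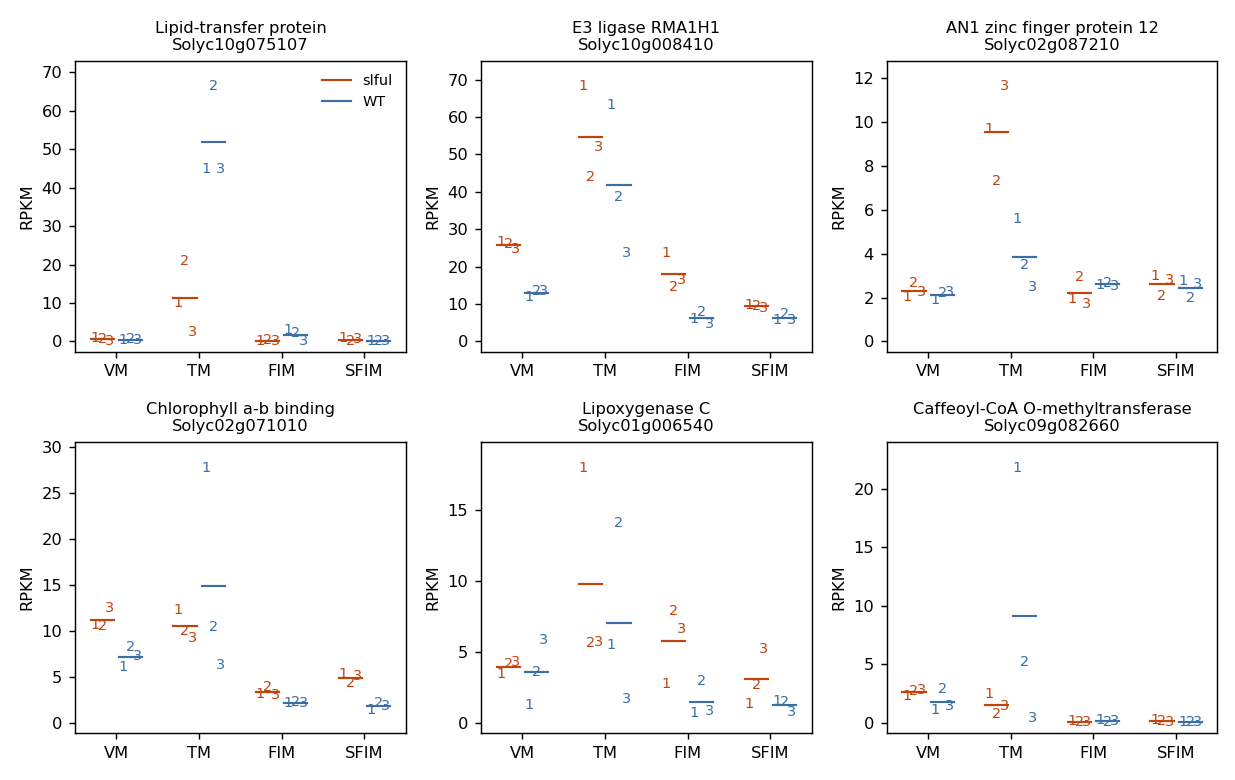
RPKM of 6 described genes by stage, with slful in orange to the left of WT in blue; each digit is a library, given by its replicate number, and the bar is the group mean. RMA1H1 and the AN1 zinc finger gene had every slful TM library above the other slful stages, whereas lipoxygenase C and caffeoyl-CoA O-methyltransferase had 1 WT TM library far above the other 2.

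Described genes with roles known in defence against pathogens or herbivores did not all rise in slful TM. Pathogenesis-related protein 1 (Solyc09g006005), a secreted protein commonly used as a marker of defence signalling, was at 9.90, 15.9 and 9.57 RPKM in slful TM, against 3.71, 4.56 and 2.43 in slful VM, 1.78, 7.67 and 1.06 in slful FIM and 1.95, 4.63 and 3.83 in slful SFIM. No slful TM library overlapped with the other slful stages. In WT TM it was at 17.5, 10.1 and 7.94 RPKM, against 1.03 to 9.01 at the other WT stages. Within slful the log2 fold changes came to 1.59 over VM (SE 0.36, limma adjusted p = 0.00434), 1.96 over FIM (SE 0.65, adjusted p = 0.138) and 1.66 over SFIM (SE 0.38, adjusted p = 0.00483). Both calls were lost without slful TM replicate 2 (adjusted p = 0.0695 against VM and 0.0567 against SFIM). With no group weights the FIM comparison passed (adjusted p = 0.0245).

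A chitinase (Solyc10g074440), an enzyme that cuts the chitin of fungal walls, was at 7.04, 13.6 and 6.89 RPKM in slful TM, against 4.49, 1.62 and 0.818 in slful VM, 0.509, 4.95 and 0.320 in slful FIM and 1.22, 2.95 and 1.55 in slful SFIM. Its slful TM libraries lay above the other 9. Its WT level was 4.96, 12.3 and 3.28 RPKM at TM, which overlapped with 2.97 to 3.85 at VM. For this gene the slful log2 fold changes were 1.94 over VM (SE 0.56, limma adjusted p = 0.0174) and 2.0 over SFIM (SE 0.59, adjusted p = 0.0193). Without slful TM replicate 2 both were lost (adjusted p = 0.161 and 0.137), as they were without slful TM replicate 3 (adjusted p = 0.0962 and 0.0993) and with no filter (adjusted p = 0.0672 and 0.0689). With no group weights the VM call was lost (adjusted p = 0.0553). Against slful FIM the value was 2.48 (SE 1.01, adjusted p = 0.227), which passed with no group weights (adjusted p = 0.0278).

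A type-2 proteinase inhibitor (Solyc03g020030), of a family that blocks digestive proteases of insects, was at 4.24, 9.27 and 5.41 RPKM in slful TM, against 3.33, 1.36 and 0.50 in slful VM, 0.323, 7.63 and 0.829 in slful FIM and 0.380, 1.89 and 2.08 in slful SFIM. Slful FIM replicate 2 overlapped with slful TM. In WT TM it was at 5.0, 30.3 and 0.869 RPKM, so that replicate 2 alone set its peak, as WT VM was at 3.67 to 4.46. It passed narrowly against slful VM (log2 1.76, SE 0.64, limma adjusted p = 0.049) and against slful SFIM (log2 1.88, SE 0.66, adjusted p = 0.0452). Without 1 of 4 libraries (slful VM replicate 2 or 3, slful TM replicate 2 or 3) the first call was lost, with an adjusted p of 0.0851 to 0.278. Without slful TM replicate 2 or 3 or slful SFIM replicate 1 the second was lost, with 0.109 to 0.224. Both calls were also lost with a pseudocount of 0.1, no filter, all 24 libraries, no group weights, the replicate block or a median shift, with an adjusted p of 0.0531 to 0.137, and the first with 6 libraries alone (adjusted p = 0.0525). Its neighbour by ID, Solyc03g020040, is also among the 200, with 19.7, 31.5 and 23.1 RPKM in slful TM against 4.17 to 8.62 in slful VM.

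A second type-2 proteinase inhibitor among the 200, Solyc03g098795 at rank 46, had its highest slful mean at FIM. It was at 0.526, 0.146 and 0.423 RPKM in slful TM, against 0.0747, 0.337 and 0.681 in slful VM, 0.880, 0.783 and 1.70 in slful FIM and 0.653, 0.636 and 0.772 in slful SFIM. All slful TM libraries lay below slful FIM and slful SFIM and overlapped with slful VM. In WT TM it was at 4.28, 1.73 and 0.1 RPKM, so that replicate 3 lay within the range of the other WT stages. Its slful log2 fold changes were 0.04 over VM (SE 0.33, limma adjusted p = 0.948), -0.89 over FIM (SE 0.59, adjusted p = 0.467) and -0.48 over SFIM (SE 0.35, adjusted p = 0.31), and the sign of the first turned without slful VM replicate 1 or slful TM replicate 1 or 3.

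The dirigent protein gene (Solyc02g082740) was the described gene led by WT TM replicate 3. Dirigent proteins steer the coupling of phenolic radicals in lignan and lignin formation. It was at 6.61, 6.08 and 6.67 RPKM in slful TM, against 4.77, 3.69 and 4.78 in slful VM, 3.5, 2.57 and 4.01 in slful FIM and 1.89, 2.02 and 1.96 in slful SFIM, with no overlap between slful TM and another slful stage. In WT it was lower at each stage by description, with 2.95, 2.45 and 5.14 RPKM at TM against 1.54 to 1.98 at VM. The slful log2 fold changes were 0.51 over VM (SE 0.14, limma adjusted p = 0.0114), 0.87 over FIM (SE 0.24, adjusted p = 0.0827) and 1.5 over SFIM (SE 0.14, adjusted p = 5.13e-06). Without slful TM replicate 2 or 3 the VM call was lost (adjusted p = 0.066 and 0.122), as it was with all 24 libraries in the fit (adjusted p = 0.0563). The FIM comparison passed without slful FIM replicate 1 (adjusted p = 0.0228) or with no group weights (adjusted p = 0.00345).

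Another gene of phenolic metabolism did not keep the WT order. Caffeoyl-CoA O-methyltransferase (Solyc09g082660), which methylates lignin precursors, was at 2.44, 0.759 and 1.47 RPKM in slful TM, against 2.28, 2.70 and 2.84 in slful VM, 0.136, 0.0966 and 0.0349 in slful FIM and 0.249, 0.173 and 0.0715 in slful SFIM. Its highest slful mean was at VM. In WT this gene was at 21.8, 5.18 and 0.395 RPKM at TM, against 1.08 to 2.92 at VM, so that WT TM replicate 3 was below every WT VM library. Its log2 fold changes in slful were -0.68 over VM (SE 0.26, limma adjusted p = 0.0636), 1.72 over FIM (SE 0.47, adjusted p = 0.0737) and 1.55 over SFIM (SE 0.27, adjusted p = 0.000851). The value against VM passed without slful TM replicate 1 (log2 -0.98, adjusted p = 0.00326). The same held with a pseudocount of 1, a filter of 0.5 RPKM in 3 slful libraries or voom (adjusted p of 0.0104 to 0.0427). The value against FIM passed without slful TM replicate 2 (adjusted p = 0.0336) or slful FIM replicate 1 (adjusted p = 0.0153). It also passed with that filter (adjusted p = 0.0331) or with no group weights (adjusted p = 0.00217). The authors' deposited table lists the gene as lower in slful TM than in WT TM, with a log2 fold change of -2.54.

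Secoisolariciresinol dehydrogenase (Solyc12g056610), an enzyme of lignan synthesis, was at 2.54, 2.93 and 2.12 RPKM in slful TM, against 0.955, 1.17 and 0.800 in slful VM, 1.31, 2.44 and 2.56 in slful FIM and 0.513, 0.625 and 1.25 in slful SFIM. Slful TM lay above slful VM and slful SFIM and overlapped with slful FIM. In WT TM it was at 2.59, 6.85 and 0.879 RPKM, against 0.243 to 1.42 at the other WT stages. In slful the log2 fold changes were 1.04 over VM (SE 0.25, limma adjusted p = 0.00549), 0.25 over FIM (SE 0.44, adjusted p = 0.813) and 1.26 over SFIM (SE 0.25, adjusted p = 0.00226). Without slful TM replicate 2 the VM call was lost (adjusted p = 0.0728).

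Of the 30 described genes, 20 were led by WT TM replicate 2, and these shared a pattern across libraries. WT TM replicate 3 was the lowest of its group in 20 of the 20, and in 145 of all 200 genes. Replicate 2 led the 20 by their definition and so could not be lowest. WT values also chose the genes, so this count is partly set by the choice. The share over all ranked genes, given below, has no such limit and is therefore not a like comparison. Among those genes WT TM replicate 2 was the lowest in 47.7%. Slful TM replicate 1 was the highest of its group in 15, slful FIM replicate 1 the lowest in 19, slful SFIM replicate 3 the highest in 18, and WT VM replicate 1 the lowest in 18. Over all ranked genes, the shares were 21.4% for WT TM replicate 3, 41.1% for slful TM replicate 1, 56.6% for slful FIM replicate 1, 36.4% for slful SFIM replicate 3 and 31.8% for WT VM replicate 1. Over all 72 genes led by WT TM replicate 2, the same counts were 58 for WT TM replicate 3, 42 for slful TM replicate 1, 36 for slful FIM replicate 1, 47 for slful SFIM replicate 3 and 53 for WT VM replicate 1. Of the 20, 8 were higher in slful TM than in slful VM, 0 than in slful FIM and 16 than in slful SFIM. The shares over all genes tested were 16.2%, 1.6% and 18.2%. These are not a like comparison, since described genes were listed partly for high slful values, at FIM above all. Nothing is read from the 0 against slful FIM. The source of the shared pattern was not tested.

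Lipoxygenase C (Solyc01g006540), which oxidises polyunsaturated fatty acids, shows it. The gene was at 18.0, 5.66 and 5.71 RPKM in slful TM, against 3.45, 4.14 and 4.31 in slful VM, 2.73, 7.93 and 6.61 in slful FIM and 1.34, 2.67 and 5.20 in slful SFIM. Slful TM lay above slful VM and slful SFIM but overlapped with slful FIM, and slful TM replicate 1 stood apart from the other 2. In WT it was at 5.46, 14.1 and 1.65 RPKM at TM and at 1.23, 3.57 and 5.86 at VM. Only slful SFIM passed, with a log2 fold change of 1.47 (SE 0.44, limma adjusted p = 0.0222), and without slful TM replicate 3 it was lost (adjusted p = 0.0641). The same held with no filter, all 24 libraries, 6 libraries alone or no group weights (adjusted p of 0.0525 to 0.0813). Against slful VM the value was 1.0 (SE 0.42, adjusted p = 0.0873), which passed with 6 libraries alone (adjusted p = 0.0452).

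Further genes of lipid metabolism among these 20 were an acyl-[acyl-carrier-protein] desaturase (Solyc06g059710), which places a double bond in fatty acids, and a GDSL esterase/lipase (Solyc02g071710). The desaturase was at 14.4, 5.06 and 4.56 RPKM in slful TM, against 3.22, 3.28 and 3.19 in slful VM, 1.51, 6.86 and 5.84 in slful FIM and 1.68, 2.96 and 4.69 in slful SFIM. The GDSL gene was at 22.9, 6.85 and 7.51 RPKM in slful TM, against 4.70, 6.03 and 6.03 in slful VM, 2.36, 10.4 and 9.18 in slful FIM and 1.44, 3.24 and 6.43 in slful SFIM. In both, slful TM lay above slful VM and overlapped with slful FIM, and slful TM replicate 1 was the highest of the 12 slful libraries. Against slful SFIM the log2 fold change was 1.14 for Solyc06g059710 (SE 0.39, limma adjusted p = 0.0385) and 1.59 for Solyc02g071710 (SE 0.49, adjusted p = 0.0255). The first was lost without any 1 of 5 libraries (slful TM replicate 1, 2 or 3, slful SFIM replicate 1 or 2), with an adjusted p of 0.0662 to 0.0938. The second was lost without slful TM replicate 3 (adjusted p = 0.0832) or slful SFIM replicate 1 (adjusted p = 0.0529). Both were also lost with no filter, all 24 libraries, 6 libraries alone or no group weights, with an adjusted p of 0.0811 to 0.137 for Solyc06g059710 and 0.0586 to 0.0919 for Solyc02g071710, and the first with the replicate block (adjusted p = 0.0567).

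The sieve element occlusion gene (Solyc03g111815), whose family forms protein plugs in the sugar-conducting phloem, was at 37.8, 15.8 and 15.0 RPKM in slful TM, against 10.2, 10.3 and 9.25 in slful VM, 5.39, 19.3 and 17.2 in slful FIM and 3.83, 6.75 and 12.5 in slful SFIM. WT libraries had it at 16.6, 40.8 and 4.53 RPKM at TM, against 3.83 to 10.5 at VM. Slful TM again overlapped with slful FIM and with no other slful stage. The slful log2 fold change was 1.52 over SFIM (SE 0.41, limma adjusted p = 0.013), 1.03 over VM (SE 0.40, adjusted p = 0.0603) and 0.74 over FIM (SE 0.71, adjusted p = 0.629). The SFIM call was lost with no filter (adjusted p = 0.06) and with all 24 libraries in the fit (adjusted p = 0.0564). The VM comparison passed with 6 libraries alone (adjusted p = 0.0159) and with voom (adjusted p = 0.0392).

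Xyloglucan endotransglucosylase-hydrolase 4 (Solyc11g065600), which cuts and rejoins a wall polymer during cell growth, was at 10.1, 3.25 and 2.26 RPKM in slful TM, against 1.26, 2.32 and 1.58 in slful VM, 1.67, 4.09 and 5.11 in slful FIM and 2.06, 1.91 and 2.28 in slful SFIM. Only slful TM replicate 1 stood clearly above the other stages. The slful log2 fold change was 1.14 over VM (SE 0.34, limma adjusted p = 0.0203), and without slful TM replicate 2 that call was lost (adjusted p = 0.0501). It was also lost with no filter, all 24 libraries, 6 libraries alone or no group weights (adjusted p of 0.0537 to 0.0954). Over SFIM it was 0.89 (SE 0.35, adjusted p = 0.0716), which passed without slful TM replicate 3 (adjusted p = 0.0475). Over FIM it was 0.33 (SE 0.61, adjusted p = 0.827), with a sign that turned without slful TM replicate 1.

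The highest levels in this set belonged to the fruit-specific protein gene Solyc01g067295 and MLP-like protein 43 (Solyc10g048030). Solyc01g067295 was at 149, 78.6 and 74.8 RPKM in slful TM, against 49.8, 65.5 and 59.2 in slful VM, 35.3, 160 and 109 in slful FIM and 22.3, 39.1 and 64.9 in slful SFIM. Solyc10g048030 was at 104, 38.8 and 34.3 RPKM in slful TM, against 20.1, 26.7 and 25.2 in slful VM, 18.0, 87.8 and 45.8 in slful FIM and 9.72, 15.6 and 45.2 in slful SFIM. Slful FIM replicates 2 and 3 reached into or above the slful TM range in both, whereas slful FIM replicate 1 was the lowest of its group.

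Some described genes of this set kept clear of slful VM and slful SFIM. Solyc09g092725, described as an FAM10 family protein, was at 6.72, 2.79 and 2.23 RPKM in slful TM, against 0.477, 0.294 and 1.04 in slful VM, 0.576, 2.0 and 2.78 in slful FIM and 0.566, 0.441 and 0.645 in slful SFIM. Its slful log2 fold change was 1.92 over VM (SE 0.36, limma adjusted p = 0.0011) and 1.94 over SFIM (SE 0.37, adjusted p = 0.00151). A 2-oxoglutarate and Fe(II)-dependent oxygenase (Solyc06g066840), of a large family of oxidising enzymes, was at 2.18, 3.42 and 1.99 RPKM in slful TM, against 0.704, 1.21 and 0.571 in slful VM, 0.443, 1.61 and 1.93 in slful FIM and 0.348, 0.169 and 0.903 in slful SFIM. No slful TM library of this gene overlapped with another slful stage. Its slful log2 fold change was 1.19 over VM (SE 0.34, limma adjusted p = 0.0166) and 1.68 over SFIM (SE 0.36, adjusted p = 0.00307). The call for Solyc06g066840 against VM was lost without slful TM replicate 2 (adjusted p = 0.165) or 3 (adjusted p = 0.0856).

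The dehydrin gene (Solyc04g082200), of a group of hydrophilic proteins that build up in drying cells, passed in none of the 3 comparisons. It was at 7.93, 6.89 and 11.1 RPKM in slful TM, against 4.92, 7.0 and 3.63 in slful VM, 4.83, 5.48 and 3.01 in slful FIM and 6.68, 4.56 and 7.54 in slful SFIM. Slful TM overlapped with slful VM and slful SFIM. The log2 fold changes were 0.70 over VM (SE 0.27, limma adjusted p = 0.0638), 0.90 over FIM (SE 0.49, adjusted p = 0.362) and 0.44 over SFIM (SE 0.28, adjusted p = 0.262). The first passed without slful VM replicate 2 (adjusted p = 0.0111) or slful TM replicate 1 (adjusted p = 0.0278). It also passed with voom (adjusted p = 0.045), and the second with no group weights (adjusted p = 0.0465).

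The most abundant gene of the 12 highest ranks was Solyc10g081170, which the files do not describe. It was at 427, 257 and 369 RPKM in slful TM, against 123, 116 and 108 in slful VM, 143, 105 and 101 in slful FIM and 85.5, 85.0 and 90.2 in slful SFIM. Every slful TM library lay above the other 9, whereas in WT the peak was that of 1 library, with 936, 138 and 110 RPKM at TM against 66.0 to 123 at the other stages. Within slful the log2 fold changes came to 1.57 over VM (SE 0.12, limma adjusted p = 6.14e-07), 1.57 over FIM (SE 0.22, adjusted p = 0.002) and 1.98 over SFIM (SE 0.13, adjusted p = 1.2e-07). Without slful FIM replicate 2 the FIM call was lost (adjusted p = 0.275), as it was with all 24 libraries in the fit (adjusted p = 0.179).

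Ranks 2 to 5 were held by Solyc03g083990, Solyc03g083994, Solyc03g083993 and Solyc03g083995, 4 loci of 372 bases each that lie close in ID order. For Solyc03g083994 the levels were 20.8, 1.80 and 0.376 RPKM in slful TM, against 0.0885, 0.444 and 0.180 in slful VM, 0, 3.22 and 0.984 in slful FIM and 0.729, 0 and 0.458 in slful SFIM. In WT TM they were 0.662, 51.4 and 0.238 RPKM. In all 4 loci, WT TM replicate 2 and slful TM replicate 1 were far above the other libraries of their groups. Equal lengths and like values leave it unknown whether the authors' counting split reads of near-identical copies among them.

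Of 13 ranked loci from a list of flowering and inflorescence regulators, 1 (7.69%) was among the 200, beside 1.26% of all ranked genes. It was Solyc06g074350 at rank 138, whose ID the files pair with no name. It was at 27.3, 13.9 and 8.42 RPKM in slful TM, against 0, 0 and 0 in slful VM, 11.3, 4.44 and 2.52 in slful FIM and 5.84, 8.84 and 8.85 in slful SFIM. Slful TM lay apart from slful VM and overlapped with the other slful stages. Counted against 3 reads per slful VM library, the slful TM mean was at least 145-fold higher (limma adjusted p = 3.61e-08). Its WT level was 6.25, 15.2 and 11.7 RPKM at TM, against 0.0739, 0 and 0.939 at VM and 1.55 to 12.4 at FIM and SFIM. Against slful SFIM the log2 fold change was 0.89 (SE 0.31, adjusted p = 0.0422), and the call was lost without slful TM replicate 1 or 2 or slful SFIM replicate 1 or 3 (adjusted p of 0.0539 to 0.141). It was also lost with a pseudocount of 0.1, no filter, all 24 libraries, 6 libraries alone, no group weights, the replicate block or a median shift (adjusted p of 0.0522 to 0.243). Against slful FIM it was 1.44 (SE 0.53, adjusted p = 0.185), which passed without slful FIM replicate 1 (adjusted p = 0.011).

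Of those 13 loci, 9 were higher and 2 lower in slful TM than in slful VM, 2 higher and 2 lower than in slful FIM, and 6 higher and 4 lower than in slful SFIM. Over all genes tested, 16.2% were higher and 16.7% lower in slful TM than in slful VM, 1.6% and 1.01% than in slful FIM, and 18.2% and 12.8% than in slful SFIM. FRUITFULL-like MADS-box 1 (Solyc06g069430), a gene named in the slful genotype, was not among the 200, since its WT level was higher at FIM than at TM. Of 7 ranked loci from a list of floral organ MADS-box genes, 0 were among the 200. They were higher in slful TM than in slful VM in 5 cases and lower than in slful FIM in 5 and than in slful SFIM in 6, beside 16.2%, 1.01% and 12.8% of all genes tested. Of 6 loci from a list of stem cell and meristem genes, 1 (16.7%) was among the 200, beside 1.26% of all ranked genes. It was Solyc11g071380 at rank 126. It was at 29.9, 37.7 and 42.2 RPKM in slful TM, against 14.2, 15.8 and 13.1 in slful VM, 26.8, 26.0 and 13.7 in slful FIM and 4.33, 4.92 and 4.59 in slful SFIM, with no overlap between slful TM and another slful stage. It was called higher than slful VM and slful SFIM (limma adjusted p = 8.18e-06 and 6.11e-09) but not than slful FIM (adjusted p = 0.119). Alternatives are not given for this gene. In WT its TM level of 17.5, 25.8 and 23.5 RPKM overlapped with 11.0, 18.7 and 13.9 at FIM. List IDs came from background knowledge, and the deposited tables describe 10 of the listed loci.

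Gene length and position by ID are given as a description. The length implied by the RPKM steps had a median of 713.5 bases in the 200 genes, beside 1511 bases in all ranked genes, with a range of 138 to 3533. Among the 27 genes with their highest slful mean at FIM the median was 261 bases. Short genes gather fewer reads at a given RPKM, so their values carry more counting error. By ID, 39 of the 200 lie on chromosome 2, or 19.5%, beside 10.8% of all ranked genes, and 30 lie on chromosome 3, or 15.0%, beside 10.6%. In ID order 17 of the 200 stood next to another of the 200, in 8 runs of at most 3 genes.

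Between genotypes the genes are described without a test, since the WT libraries of every stage chose them. The median log2 difference of slful minus WT was 0.15 at VM, -0.12 at TM, 0.04 at FIM and 0.21 at SFIM, beside 0.01, -0.03, -0.07 and 0.02 over all ranked genes. Slful means were above WT means on the log2 scale for 134 of the 200 genes at VM, 88 at TM, 112 at FIM and 149 at SFIM. The authors' deposited tables list 19 of the 200 as higher in slful at FIM, beside 0.584% of the ranked genes, and 1 as lower, beside 0.176%. At SFIM the authors' deposited table has 11 higher, beside 0.283%, and 0 lower, beside 0.0943%. At TM it has 1 higher, beside 0.22%, and 2 lower, beside 0.0817%, and at VM 2 higher, beside 0.189%, and 2 lower, beside 0.0943%. Nothing is read from these counts, since low WT values outside TM are part of how the genes were chosen.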

How the data were processed

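Per the deposited legend, the authors' expression table holds RPKM; the sources used here name no aligner, genome build, annotation or strandedness. Per the file headers, the authors' deposited comparison tables give log2 fold change, linear fold change, p-value and FDR p-value of slful over WT, for changed genes only, by a test that these sources do not name. Per the labels' protocols, RNA was extracted with a column kit, treated with DNase and made into TruSeq libraries. No count table was used, and the count test planned as an alternative was not run on the RPKM unit.

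The 200 genes, the gene lists and the named genes were chosen with earlier results of these data known. Reads were recovered from the RPKM steps with Python 3.11.15, numpy 2.4.6 and pandas 2.3.3: all 25568 genes with reads came out whole within 0.02 reads, and for 21634 of the 21686 genes read in 6 or more libraries the implied length was whole to within 0.02 bases. They served for depth, length and 1 alternative (voom). Low values carry counting error: for a gene of 1 kb, 3 reads equal 0.0332 to 0.232 RPKM, depending on the library.

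Tests used limma (version 3.58.1, R version 4.3.3) on log2(RPKM + 0.5) in the 12 slful libraries, with group means, 1 variance weight per group, a trend on the mean, 2-sided moderated tests (median of 13.5 degrees of freedom) and Benjamini-Hochberg adjustment over the 15915 ranked genes. This filter uses WT levels alone. The script was tested on simulated data. Named were the 12 highest ranks, list members, the 25 highest-ranked described genes and extremes of the slful change, with few of the undescribed ones printed. Solyc02g087210, Solyc02g082740 and Solyc06g066840 were added after their values were seen. Leaving out each library and other settings were tried as alternatives. P-values measure only the spread between these pooled samples. Sequences were not used here.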

Additional observations from a re-analysis of the deposited data

Results flagged for a closer look

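In 3 of the 200 genes all TM libraries lay on one side of another stage in slful and on the other side in WT. The same count over all ranked genes was not made, so nothing is read from the number of 3. WT libraries chose these genes, and the difference between genotypes was not tested. None has a deposited description. Solyc02g077920 was at 3.24, 2.81 and 3.32 RPKM in slful TM, against 4.46, 4.34 and 4.11 in slful VM, whereas it was at 4.67, 3.71 and 3.6 RPKM in WT TM, against 1.98, 2.67 and 2.05 in WT VM. Its slful log2 fold change of TM over VM was -0.41 (limma adjusted p = 0.0303), so that it fell in slful TM relative to slful VM. That call was lost without slful VM replicate 1 or 2 or slful TM replicate 2 or 3 (adjusted p of 0.0558 to 0.226), with no group weights (adjusted p = 0.0734) and with the replicate block (adjusted p = 0.0538). Solyc10g081860 was at 1.46, 1.46 and 1.17 RPKM in slful TM, against 1.63, 2.32 and 1.46 in slful FIM (the nearest libraries differed only past the printed digits), and at 3.51, 2.75 and 2.37 RPKM in WT TM, against 1.59, 1.45 and 1.92 in WT FIM. Its slful log2 fold change of TM over FIM was -0.29 (adjusted p = 0.775). Solyc06g062320 was at 2.62, 2.76 and 2.19 RPKM in slful TM, against 3.37, 3.6 and 2.86 in slful FIM, and at 4.79, 4.06 and 3.46 RPKM in WT TM, against 2.64, 2.47 and 2.31 in WT FIM. The slful log2 fold change of TM over FIM was -0.32 for Solyc06g062320 (adjusted p = 0.778).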

How the results depend on the processing

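Counts of genes higher in slful TM than in slful VM stayed between 79 and 117, and than in slful SFIM between 118 and 168, under every alternative counted. Libraries left out singly in these counts were those of the stages compared. Over all genes tested, the same counts ran from 1391 to 3580 and from 1364 to 3502. Against slful FIM, the count of 25 was 9 with all 24 libraries in the fit, 79 with no group weights, and 1 to 55 when libraries were left out singly. Over all genes tested, the count of 255 was 266, 1196 and 8 to 721 in the same order. Genes lower in slful TM than in slful VM, 6 in the reported fit, were 3 with all 24 libraries, 10 with voom on recovered reads and 2 to 11 when libraries were left out singly. Over all genes tested, the lower count of 2664 was 2798, 2818 and 1265 to 3628 in the same order. Against slful SFIM the lower count was 0 to 1 when libraries were left out singly, beside 999 to 2566 over all genes tested. Genes highest at TM in slful numbered 135 to 153 when slful TM or slful FIM libraries were left out singly. Of the 200 genes, 127 were again among the top 200 with a minimum of 5 RPKM, 128 with the median of the 3 WT libraries in place of the mean, and 120 to 160 with 1 WT TM library left out. The log2 fold change of Solyc11g065600 against slful FIM ran from -0.25 (without slful TM replicate 1) to 0.72 (without slful TM replicate 3) and was -0.08 without slful FIM replicate 1. That of Solyc03g098795 against slful VM ran from -0.23 to 0.29 when libraries were left out singly. With the replicate number as a block, the higher counts were 101, 29 and 160 against VM, FIM and SFIM, and the lower counts 5, 0 and 0. Over all genes tested, that fit gave 2278, 268 and 2792 higher and 2378, 189 and 2018 lower. Deviations of genes from their group means were correlated between slful TM libraries and same-numbered libraries of the other slful stages. These correlations ran from -0.14 to 0.17, so that the numbers were not shown to pair samples. Of the 25 genes whose fold changes are given, 15 were called against slful VM, 4 against slful FIM and 22 against slful SFIM. From these, 7, 0 and 12 kept the call under all 16 alternatives, which include the fit with all 24 libraries. Of those not called, 6 of 10, 9 of 21 and 1 of 3 passed under at least 1 alternative. The causes were not tested. A median shift of log2 values stood in for the planned TMM scaling, and the planned edgeR test was not run. Depth limits low and short genes most, in slful TM replicate 1 above all.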
